A study of Schizosaccharomyces pombe with 36 samples.

Results

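The 250 strongest replication origins of the fission yeast *Schizosaccharomyces pombe* genome were described in polymerase usage sequencing (Pu-seq) data. An origin was placed where the share of rightward moving forks rose most sharply from left to right. The members were chosen by this rise in the 4 strain pairs that carried the *RTS1-rRFB* construct on chromosome II with the *RTS1* barrier off. Counts were scaled to each library's total, added up over these pairs for each polymerase, bin and strand, and smoothed over 7 bins of 300 bp. The rightward share was the mean of the Pol ε share on the Watson (forward) strand and the Pol δ share on the Crick (reverse) strand. The jump was the mean rightward share of the 10 bins on the right less that of the 10 bins on the left, in percentage points. Bins with the largest jump within 20 bins on either side were kept and ranked over all 3 chromosomes. This gave 751 candidate origins among the 41912 bins of the genome, of which ranks 1 to 250 are the origins described. They are named here by rank, from origin 1 to origin 250. The next 400 candidates, down to rank 650, serve for comparison and are called the weaker origins.

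Replication starts at many sites of a fission yeast chromosome, and each site sends 1 fork to the left and 1 to the right. Pol ε copies most of the leading strand, Pol δ copies most of the lagging strand, and Pol α, bound to primase, lays down the primers of the lagging strand. A rightward fork therefore leaves Pol ε on the Watson strand and Pol δ and Pol α on the Crick strand, and a leftward fork does the reverse, so usage of all 3 polymerases switches strand at an origin. The origin recognition complex of this yeast binds DNA through the AT-hooks of its Orc4 subunit, and its origins are known as A+T-rich stretches between genes without a fixed consensus sequence. Only part of the possible origins is used in any 1 cell, so a share in a culture is an average over cells. In such an average, an origin used in fewer cells and one whose start sites are spread over a wider stretch cannot be told apart.

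The series holds 36 libraries of genomic DNA from haploid h- strains that were grown in rich medium to log phase and carry ade6-704, leu1-32 and an ura4 deletion allele (for the *rRFB* array on chromosome I the labels give no mating type). Each strain has 1 polymerase that inserts more ribonucleotides: cdc6-L591G for Pol δ (cdc6-L591M in the inverted pair), cdc20-M630F for Pol ε or pol1-L850F for Pol α. All strains lack normal ribonucleotide excision through *rnh201-d* (rnh201::kan) or *rnh201-RED*, so that the ribonucleotides stay in the DNA and mark the strand the polymerase made. The 4 pairs that chose the origins are *rnh201-d* or *rnh201-RED*, each pku70+ or labelled pku70-d, with rtf1::nat, which removes the protein that *RTS1* needs to stop forks. The 12 other pairs comprise the same 4 backgrounds with rtf1+ (barrier on), *rnh201-d* with *rtf1* under the adh1 promoter, *rnh201-d* with tandem *RTS1*, *rnh201-RED* with inverted *RTS1* and *rtf1* under the adh1 promoter, *rnh201-d* with TuraR at 4 sites (the ChrII site, and *mns1*, *tel2* and *mek1* on chromosome I; the methods describe TuraR as *RTS1* with ura and ter sequence), and *rnh201-d* with only the *rRFB* array on chromosome I. The 4 Pol α libraries are *rnh201-d* and *rnh201-RED*, pku70+, each with the barrier on and off. Strains of the ChrII locus had their native *RTS1* replaced by Phleo. Some of them also carry smt0. For the 4 pairs with TuraR and the pair with only the array, the labels list no such replacement. The files used here hold 1 library of each strain and polymerase, so a strain has 1 pair and spreads are over different strains.

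The depth ranged from 3304406 to 84420592 counts per library, and from 6248341 to 30967258 in the 8 libraries that chose the origins. The labels were checked against counts over *rtf1* and *pku70* relative to their flanks. Over *rtf1*, the 10 barrier-off libraries had 0.028 to 0.265 of the flank level and the 26 others 0.531 to 1.08, among them both libraries of TuraR at *tel2* and the Pol ε library of the array, which are listed as rtf1::nat. Over *pku70*, the 4 *rnh201-RED* libraries labelled pku70-d had 0.003 to 0.015. The 4 *rnh201-d* libraries labelled pku70-d kept 0.682 to 0.798, and their label names a leu2 marker without the bases it replaced. The *rnh201-d* barrier-off Pol α library, labelled pku70+, had 0.002. The title and the genotype of each inverted library name opposite polymerases. The titles were followed because the jumps at the origins are then positive, as in the other pairs. The sign of this pair's jumps was thus set by that choice.

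The sequences below show what these origins look like on the Watson strand of ASM294v3, with every run of 6 or more A or 6 or more T in capitals. The first 3 are the highest ranks whose bins fall on the reference bases exactly. Origin 2 lies between *saf2* and *lsk1* (chrI:3952801-3953100), origin 3 between *mnl1* and *tsc3* (chrI:4087801-4088100) and origin 4 between *noc201* and *ctr5* (chrI:3634801-3635100). The origin between *sgp1* and *vps11* (chrI:2600401-2600700), called sgp1-vps11 here, is the last but 1 of the list. Origin 43 (chrI:3320701-3321000) and origin 28 (chrI:4739401-4739700) lie beside sites where constructs were inserted, and origin 67 (chrII:823501-823800) is the member nearest to the ChrII construct. Origin 176 (chrIII:3001-3300) is a copy of the ribosomal DNA spacer.
origin 2: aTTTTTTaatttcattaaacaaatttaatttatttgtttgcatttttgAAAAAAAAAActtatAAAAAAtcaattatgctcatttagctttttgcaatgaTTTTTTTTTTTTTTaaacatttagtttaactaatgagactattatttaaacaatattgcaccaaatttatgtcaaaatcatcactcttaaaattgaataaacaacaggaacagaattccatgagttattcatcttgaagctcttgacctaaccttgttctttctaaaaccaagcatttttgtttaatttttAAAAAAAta
origin 3: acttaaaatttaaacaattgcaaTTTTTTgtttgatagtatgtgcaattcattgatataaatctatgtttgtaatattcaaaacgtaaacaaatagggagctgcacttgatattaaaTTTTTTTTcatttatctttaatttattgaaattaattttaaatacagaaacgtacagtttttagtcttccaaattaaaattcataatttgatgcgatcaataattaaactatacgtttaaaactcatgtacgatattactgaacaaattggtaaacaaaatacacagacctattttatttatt
origin 4: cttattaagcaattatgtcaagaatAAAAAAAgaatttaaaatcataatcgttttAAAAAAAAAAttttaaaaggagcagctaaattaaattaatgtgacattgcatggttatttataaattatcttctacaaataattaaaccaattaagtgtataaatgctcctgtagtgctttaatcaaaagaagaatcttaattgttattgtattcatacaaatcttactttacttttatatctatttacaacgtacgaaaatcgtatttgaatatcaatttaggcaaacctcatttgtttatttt
sgp1-vps11: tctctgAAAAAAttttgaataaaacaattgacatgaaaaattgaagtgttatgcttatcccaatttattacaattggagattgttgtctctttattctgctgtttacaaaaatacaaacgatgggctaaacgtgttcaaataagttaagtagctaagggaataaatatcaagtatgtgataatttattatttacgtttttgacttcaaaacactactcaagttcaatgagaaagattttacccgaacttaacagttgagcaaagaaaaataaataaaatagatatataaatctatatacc
origin 43: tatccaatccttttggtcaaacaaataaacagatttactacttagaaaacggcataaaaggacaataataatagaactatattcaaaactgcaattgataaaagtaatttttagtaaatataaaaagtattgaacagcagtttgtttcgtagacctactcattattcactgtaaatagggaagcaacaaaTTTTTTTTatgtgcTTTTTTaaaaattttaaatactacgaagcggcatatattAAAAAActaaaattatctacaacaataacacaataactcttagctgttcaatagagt
origin 28: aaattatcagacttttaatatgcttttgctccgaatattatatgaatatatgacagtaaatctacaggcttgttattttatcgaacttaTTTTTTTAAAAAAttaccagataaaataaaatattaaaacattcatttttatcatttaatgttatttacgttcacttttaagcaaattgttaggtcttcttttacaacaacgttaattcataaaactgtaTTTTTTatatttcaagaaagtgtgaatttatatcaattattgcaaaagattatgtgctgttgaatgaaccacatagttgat
origin 67: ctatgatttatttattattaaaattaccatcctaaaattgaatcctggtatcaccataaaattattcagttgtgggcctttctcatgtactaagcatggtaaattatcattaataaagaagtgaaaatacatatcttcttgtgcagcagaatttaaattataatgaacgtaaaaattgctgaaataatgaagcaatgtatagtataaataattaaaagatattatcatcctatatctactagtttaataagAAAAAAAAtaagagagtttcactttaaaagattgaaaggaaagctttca
origin 176: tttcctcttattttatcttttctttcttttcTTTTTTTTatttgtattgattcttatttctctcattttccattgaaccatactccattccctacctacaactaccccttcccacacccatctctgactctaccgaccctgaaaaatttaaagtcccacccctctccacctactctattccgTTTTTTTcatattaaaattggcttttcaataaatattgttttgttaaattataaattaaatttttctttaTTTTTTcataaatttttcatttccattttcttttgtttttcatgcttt

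A+T made up 79.0% of origin 2, 78.0% of origins 3 and 4, 73.3% of sgp1-vps11, 74.3% of origin 43, 77.3% of origin 28, 75.3% of origin 67 and 71.3% of origin 176. Origin 2 held 5 runs, origins 28, 43 and 176 held 3 each, origins 3 and 4 held 2 each, and origin 67 and sgp1-vps11 held 1 each. The number of runs thus did not follow the rank among these 8.

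In the pairs that chose them, the origins had jumps of 36.87 to 69.57 points with a median of 53.06 points. These values are a description, since the rule used them. At the threshold there was no gap: sgp1-vps11 had 36.98 points, origin 250 36.87, and the next candidates 36.86 and 36.79. The rightward share had a median of 22.50% on the left side of an origin and 77.92% on the right. The members' median jump was 45.97 points in the *rnh201-RED* pku70+ pair, 53.62 in the *rnh201-d* pair labelled pku70-d, 54.26 in the *rnh201-RED* pku70-d pair and 57.91 in the *rnh201-d* pku70+ pair. All 250 origins had a positive jump in each of the 4.

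**Figure D1:**
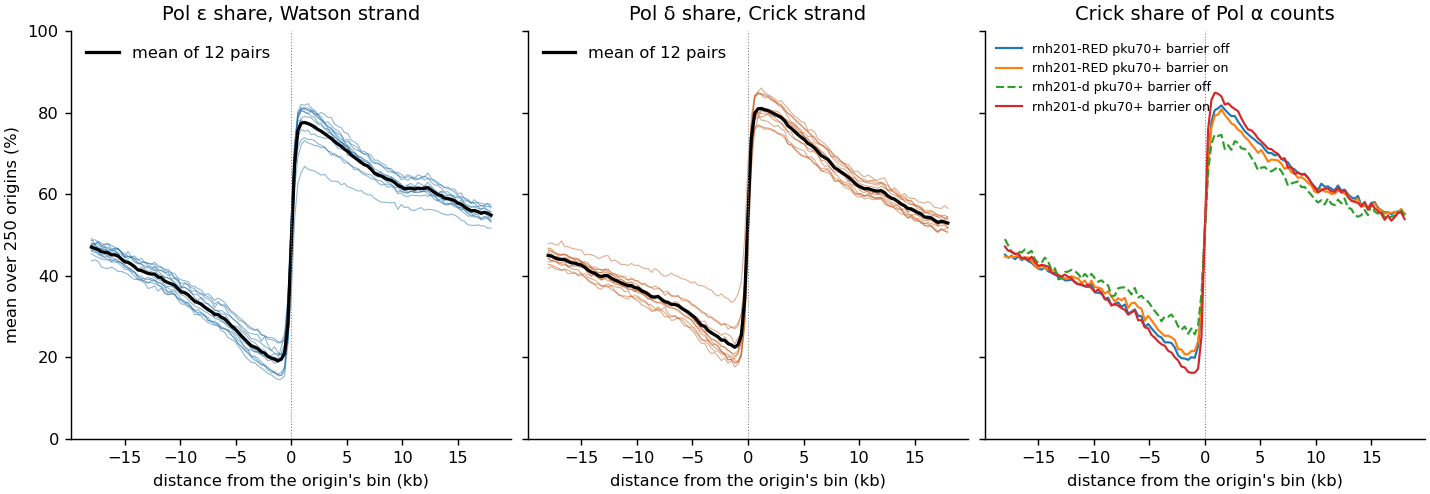
Mean usage over the 250 origins by distance from the origin's bin in kb: Pol ε share on the Watson strand and Pol δ share on the Crick strand in the 12 pairs not used to choose the origins (thin lines, 1 per pair; black, mean of the 12), and the Crick share of Pol α counts in 4 libraries, in percent (dashed, the library whose *pku70* counts went against its label). Each measure switched from its low to its high level within a few bins of the origin and returned toward the middle on both sides with distance.

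The 12 pairs that had no part in the choice showed the same switch. The members' median jump ranged from 41.22 points (inverted *RTS1*) to 57.40 points (*rnh201-d* pku70+, barrier on), with a mean of 50.78 ± 5.80 points (SD, n = 12 pairs). Of 2986 single values, 2986 were positive and the lowest was 20.77 points. In the inverted pair the positive sign was set by the choice of its polymerase labels. Both strands switched: the Watson Pol ε share and the Crick Pol δ share each rose from left to right at every origin with a value in every pair. The weaker origins had median jumps of 9.42 to 16.57 points over the same pairs, so the ranges of the pair medians did not overlap. The edgeR quasi-likelihood test covered 1359 positions (all candidates and a grid of positions away from them). Of these, 720 (53%) were called for an upward and 553 for a downward jump. Among the upward calls were 246 of the 246 origins tested and 399 of 399 of the weaker origins. The 53% is therefore a share of a set rich in candidate origins and not of the genome. The count by itself therefore sets the origins little apart. The size is given as a log2 change in odds from left to right. It is the mean of Pol ε over Pol δ on the Watson strand and Pol δ over Pol ε on the Crick strand. Its median was 3.87 for the origins, 0.96 for the weaker origins and 0.23 over all positions. Origins and weaker origins were ranked by the jump in the barrier-off pairs. Their difference in size was thus largely set by the ranking and is a description. The adjusted p of the origins (edgeR, Benjamini-Hochberg) ran from 1.4e-11 to 6.15e-09. Origins 28, 43, 92 and 246 were not tested because bins beside a construct or a deletion were left out in some pairs.

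The size of the jump differed between pairs more than the order of the origins did. In the 12 pairs that the rule did not use, each pair's own 250 largest jumps held 236 to 244 of the 250 origins within 3 bins, and the rank correlation of a pair's jumps with those of the rule was 0.922 to 0.977 over the origins (description, n = 248 to 250 origins that share the library). The spread of the rightward share over all bins of a pair, between its percentiles 5 and 95, went with the pair's median jump: it was 51.77 points in the inverted pair and 51.46 points in the TuraR pair on ChrII, where the median jumps were 41.22 and 42.21, and 68.69 points in the *rnh201-d* pku70+ barrier-on pair, where it was 57.40. Its part in the difference between pairs was not tested.

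**Figure D2:**
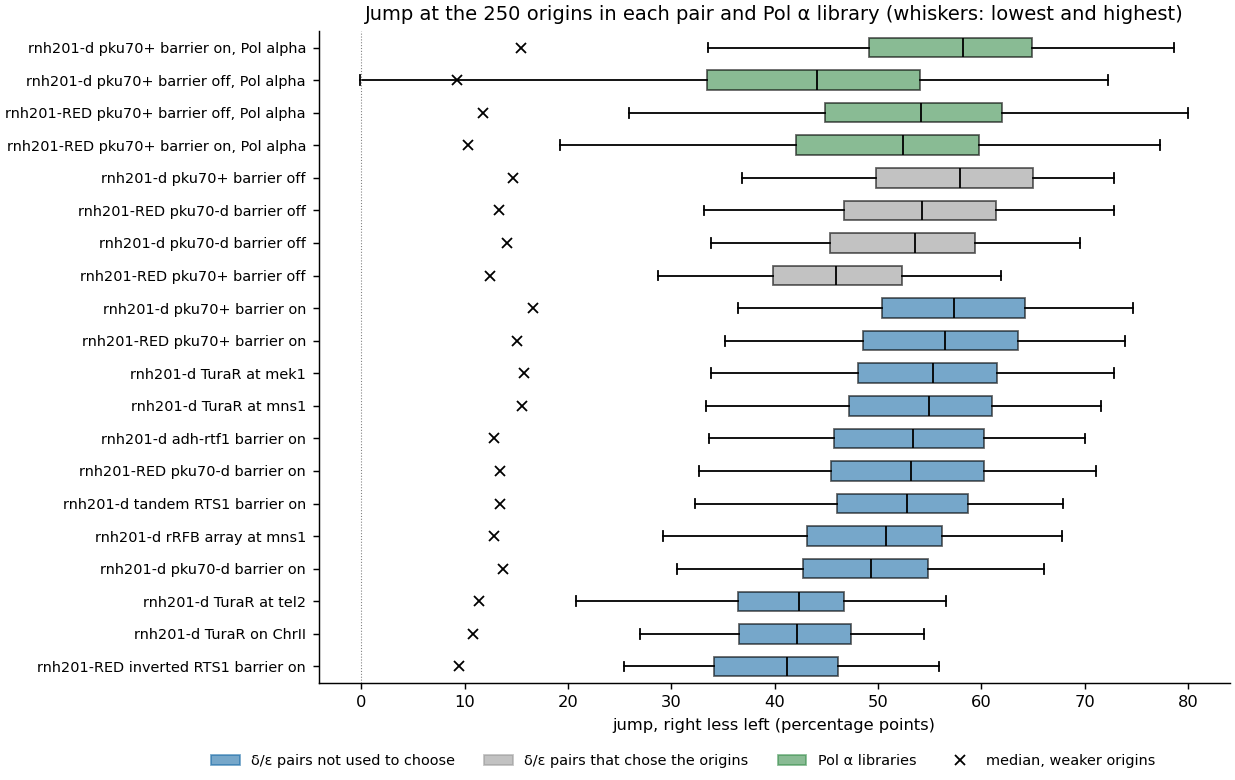
Jump in percentage points at the 250 origins in each Pol δ and Pol ε pair and each Pol α library (box, quartiles with the median; whiskers, lowest and highest origin; crosses, median of the weaker origins in the same pair or library). Pairs not used to choose the origins had medians from 41.22 to 57.40 points, and 1 value lay below 0, in the *rnh201-d* barrier-off Pol α library.

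Origin 1, on chromosome III between *bqt3*, which encodes a nuclear membrane protein of the telomere bouquet, and *qcr9*, for a subunit of respiratory complex III, had the largest jump by the rule, 69.57 points. In the 12 other pairs its jump was 54.47 points at the lowest, 68.97 at the median and 73.90 at the highest, a mean of 66.33 ± 7.19 points (SD, n = 12). Origin 2, beside the protein kinase gene *lsk1*, had 52.17, 68.06 and 74.72 points, with a mean of 65.93 ± 7.66. Origin 7, between *snd1* and the mitochondrial ribosomal protein gene *mrpl37*, had 51.51, 66.09 and 70.96 points, with a mean of 64.06 ± 7.12. The other 7 of the first 10 had means from 61.17 (origin 9, between the ribosome-associated chaperone gene *zuo1* and the telomere protein gene *rap1*) to 63.68 points (origin 3). These means lie closer together than the spread of any of them over pairs. That spread includes what a pair's origins share, and differences between origins within pairs were not tested. Of the first 10, 8 lay between divergently transcribed genes, and origin 4 (*noc201* and the copper transporter gene *ctr5*) and origin 8 (*smg1* and *vps25*, for a subunit of ESCRT-II) between genes in tandem. At the other end of the list, sgp1-vps11 had 29.38 points at the lowest, 36.25 at the median and 41.80 at the highest. Its highest pair was below the lowest pair of each of origins 1, 2 and 7.

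Over all 250 origins the mean jump in the 12 pairs ran from 33.53 to 66.33 points with a median of 50.91. The SD over pairs had a median of 6.25 points and was largest at origins 183, 185 and 176, with 10.78, 9.89 and 9.85 points. These 3 lie in the ribosomal DNA at the ends of chromosome III, in the spacer between rRNA genes, 1611 to 1843 bp from the nearest one. The bin of each has 3 exact copies in the reference, so the 3 are 1 origin of a repeat whose reads cannot be assigned to a copy, and their mean jumps of 42.73, 42.33 and 42.18 points are not separate measurements. In origin 183 the jump was 20.77 points in the lowest pair, 46.22 at the median and 58.31 in the highest. Origin 94, beside the hexose transporter gene *ght6*, followed with an SD of 9.65. Of the 250 origin bins, 240 held no 50-base word that occurs elsewhere in the reference, and their median jump was 51.04 points.

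Pol α, which the rule did not use, switched strand at the same origins. The share of its counts on the Crick strand rose by a median of 52.39 and 54.16 points in the *rnh201-RED* libraries with the barrier on and off, and by 58.21 and 44.13 points in the *rnh201-d* libraries with the barrier on and off. Of 1000 values, 999 were positive, and the exception was -0.12 points at origin 221, beside *adg1*, in the *rnh201-d* barrier-off library. The weaker origins had medians of 9.29 to 15.46 points. In edgeR's test over 1369 positions, 40.6% of all positions were called for an upward jump, against 250 of 250 origins and 266 of 400 of the weaker origins. Over all positions 556 were called upward and 317 downward. With DESeq2's size factors, which moved the median log2 change over all positions from 0.17 to -0.61, 410 were called upward and 769 downward, and the weaker origins split into 153 upward and 113 downward, while 250 of 250 origins were again called upward. The adjusted p of the origins ran from 1e-05 to 0.0156. Without the *rnh201-d* barrier-off library, whose *pku70* counts went against its label, 250 of 250 were called too and the median over origins of the mean jump went from 51.42 to 54.99 points.

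At single origins the Pol α jump followed that of Pol δ and Pol ε. Origin 1 had Pol α jumps of 77.32, 80.01, 68.64 and 78.64 points in the 4 libraries and origin 2 had 72.42, 75.61, 64.26 and 76.63. The lowest value of both was in the *rnh201-d* barrier-off library. The origin sgp1-vps11 had 25.27 points in its lowest library and 36.44 in its highest, below all values of both. In blocks of 50 by rank, the median Pol α jump was 63.76 points for the first 50 origins and 58.56, 51.59, 44.26 and 37.04 points for the following blocks in order. Over the 250 origins, the mean Pol α jump and the mean jump in the 12 pairs had a Pearson r of 0.897 and a Spearman rho of 0.903 (description across origins, which share libraries).

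**Figure D3:**
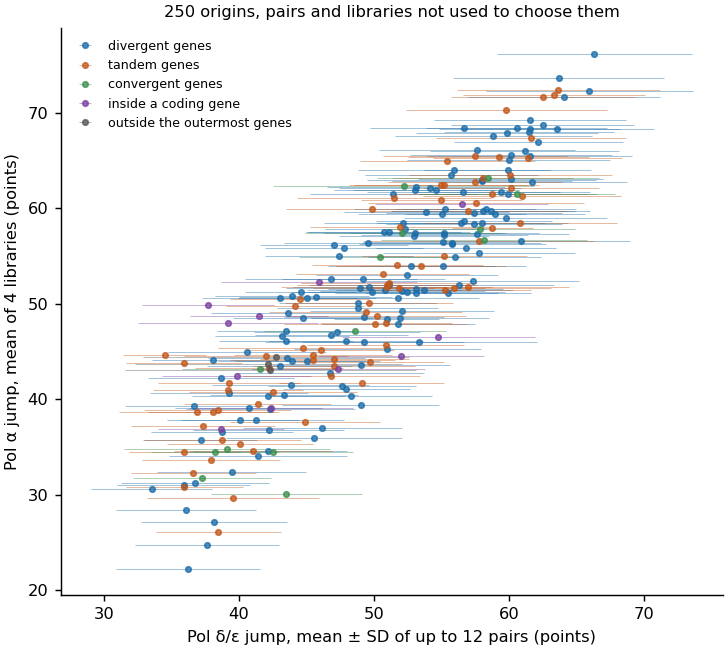
Mean Pol α jump over 4 libraries against the mean jump of Pol δ and Pol ε over up to 12 pairs for each of the 250 origins, in percentage points, coloured by the genes around the origin. Horizontal lines are SDs over pairs, and origins with larger Pol δ and Pol ε jumps had larger Pol α jumps.

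The position of an origin hardly moved between strains. When the largest jump was searched in each of the 12 pairs within 20 bins of the origin, its median distance from the rule's bin was 0 bp and the mean 96.2 bp, and 99.4% of the values were within 1 bin. The tandem, inverted, TuraR and array pairs had first been shifted to correlate best with a pair that chose the origins. In these pairs the match in position is therefore partly built in. In each barrier-on pair that needed no shift, 250 of 250 origins had the largest jump within 3 bins. Pol δ averaged over both strands, in the 5 bins at the origin less the bins several kb away, had medians from -3.11 points (*rtf1* under the adh1 promoter) to 5.91 points (inverted *RTS1*) over these pairs. Its sign differed between pairs.

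The rule used no sequence, and the origins shared several features that it did not use. In the annotation of ASM294v3, 236 of the 250 (94.4%) lay between protein-coding genes, against 68.5% of the weaker origins and 22.88% of all bins. The genes on both sides pointed away from the origin at 146 origins (58.4%), against 36.5% and 10.07%. Another 76 lay between genes in tandem, 14 between convergent genes, 11 inside a coding gene and 3 in the ribosomal DNA beyond the last coding gene. A tRNA gene lay within 1 kb of 29 origins (11.6%), against 6.25% of the weaker origins and 2.22% of bins. A long terminal repeat of a retrotransposon lay within 1 kb of 15 (6.0%), against 7.75% and 4.03%. These are descriptions of positions in 1 genome, with no test. On chromosome II right of the construct and on most of chromosome III, the position in the reference is known to about 1 bin only.

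The A+T content of the origin's bin had a median of 75% (lowest 55.0%, highest 85.3%), against 70.0% for the weaker origins and 64.0% for all bins. Over 5 bins around the origin it was 70.5%, against 68.1% and 64.1%. The mean was 74.2% in the origin's bin, 71.3% and 71.1% in the adjoining bins and 63.5% and 63.1% at 1200 bp on either side. A run of 6 or more A or T was present in 228 origin bins (91.2%), against 79.5% and 55.17%, and 3 or more runs in 104 (41.6%), against 24.5% and 8.9%. Both strands count here, since a run of T on the Watson strand is a run of A on the Crick strand.

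**Figure D4:**
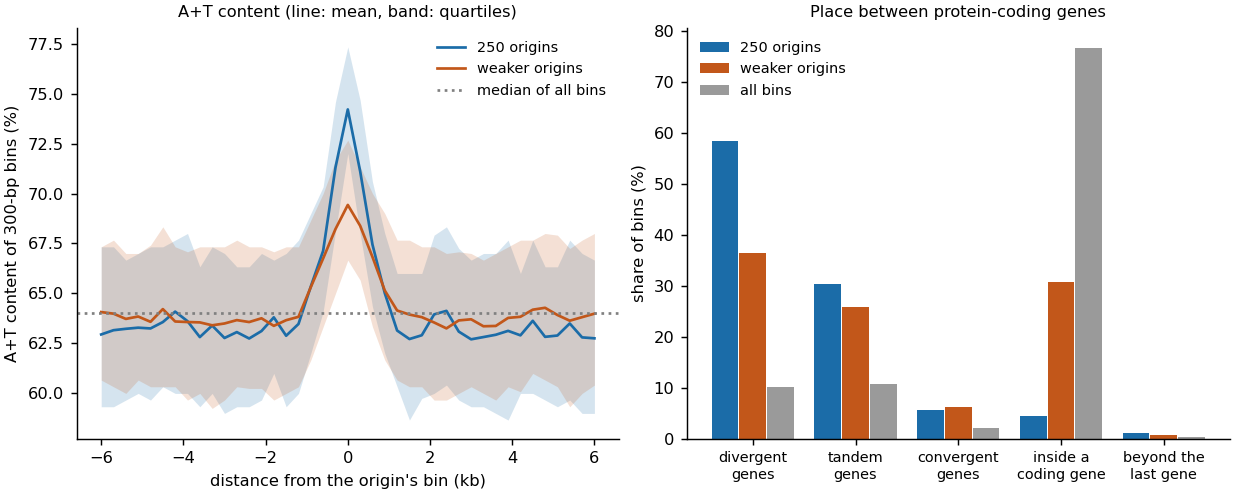
Left, A+T content in percent of 300-bp bins by distance from the origin's bin in kb (lines, means; bands, quartiles; dotted, median of all bins), for the 250 origins and for the weaker origins. Right, share of the bins in percent by their place between protein-coding genes. Divergent gene pairs held 58.4% of the origins and 10.07% of all bins.

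Within the list these features followed the jump only weakly. The mean jump in the 12 pairs had a Pearson r of 0.281 and a Spearman rho of 0.289 with the A+T content of the bin, and 0.142 and 0.147 with the number of runs (n = 250 origins, description). Split into groups of 50 by A+T content, from the lowest to the highest, the origins had median jumps of 47.33, 50.22, 49.51, 55.03 and 53.51 points. Origins between divergent, tandem and convergent genes had medians of 51.99, 50.42 and 49.51 points. The 11 inside coding genes had a median of 42.39 points, with values from 37.71 to 56.49. Origins with a tRNA gene within 1 kb had 51.86 points, against 50.88 for the others.

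Chromosome I held 109 of the origins, chromosome II 84 and chromosome III 57, or 19.54, 18.49 and 23.25 per Mb. The median distance between neighbours was 45000 bp, 46800 bp and 34350 bp, and the shortest was 6900 bp, on chromosome III. The median jumps in the 12 pairs were 50.95 points on chromosome I, 48.90 on II and 51.92 on III. The widest stretch of chromosome II without a member, 137400 bp from origin 67 onward, contains the site of the *RTS1-rRFB* construct. This length is in bins of the genome with the construct and includes the inserted DNA. Beyond it the estimated shift to the reference is -3720 bp. Wider stretches were found on chromosome I (167700 bp) and chromosome III (145200 bp).

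The comparison of *pku70*, whose product is a subunit of the Ku heterodimer that binds DNA ends, rests on 2 pairs labelled pku70-d against 10 pku70+ pairs. In edgeR's quasi-likelihood test, 0% of the 1359 positions were called for a larger and 0% for a smaller jump. Of the 246 origins tested, 0 were called. An unadjusted edgeR p under 0.05 was found at 0 of them, close to the 0.442% of all positions. On the jumps, limma called 0. The log2 change in the odds, pku70-d less pku70+, had a median of 0.05 over the origins and ran from -0.46 to 0.47. Its median was -0.26 without the inverted pair and 0.30 without the *rnh201-RED* pku70+ barrier-on pair, with 0 calls in both. In points, the difference fitted by limma had a median of 1.12 and ran from -4.42 to 5.06. Both this fit and that of edgeR held the *rnh201* allele as a second term. With the 4 barrier-on *RTS1-rRFB* pairs alone, limma called 0 origins, while 179 of 250 (71.6%) had an unadjusted p under 0.05, against 21.3% of all 1369 positions. The median difference in that fit was -5.76 points over the 250 origins and -0.71 over all positions, the opposite sign to the 1.12 points above. The *rnh201-d* pair in this group kept its *pku70* counts, and the 2 pairs are 1 per background.

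The 2 *rnh201* alleles were set against each other with 3 *rnh201-RED* and 9 *rnh201-d* pairs. Again 0% of all positions were called for a larger and 0% for a smaller jump, and 0 of 246 origins. An unadjusted edgeR p under 0.05 was found at 0 of these origins and at 4.12% of all positions. By limma, 0 origins were called. The log2 change in the odds, *rnh201-RED* less *rnh201-d*, had a median of -0.12 and ran from -0.58 to 0.90. In points, the difference fitted by limma had a median of -0.97 and ran from -6.35 to 9.90. Both fits held *pku70* as a second term. The inverted pair is 1 of the 3, and without it the median log2 change was 0.43, while without the *rnh201-RED* pku70+ barrier-on pair it was -0.59, both with 0 calls. With the 4 barrier-on *RTS1-rRFB* pairs alone, limma called 0 origins and 38 (15.2%) had an unadjusted p under 0.05, against 24% of all positions, and the median difference was 1.26 points over the origins. With these numbers of pairs, small changes at single origins were not detectable and larger ones were often missed. In simulated counts, a log2 change of 0.5 was recovered at 5 of 50 positions for *pku70* and 4 of 50 for the allele. A change of 1 was recovered at 28 and 39 of 50, and one of -1 at 19 and 33 of 50. A change of 2 was recovered at 50 of 50 for both. Since the barrier-off pairs chose the origins, barrier on and off were not tested, and the members' medians stand side by side: 57.91 points off and 57.40 on in *rnh201-d* pku70+, 45.97 and 56.48 in *rnh201-RED* pku70+, 54.26 and 53.19 in *rnh201-RED* pku70-d, and 53.62 and 49.28 in the *rnh201-d* pair labelled pku70-d.

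Origin 43 differed in the strains that carried a construct beside it. It lies between the ribosomal protein gene *rps602* and *iec5*, for a subunit of the Ino80 chromatin remodeller, and 4153 bp left of the site at *mns1*. Distances to construct sites are to an end of *mns1*, *tel2* or *mek1*, or on ChrII to the middle between *clr6* and *spo9*. Which end of a gene carries the insertion was assumed. At *mns1*, 1 pair carried TuraR and another the *rRFB* array. The rightward share left of origin 43 was 30.59% and 33.59% in these 2 pairs, and 15.34% at the lowest, 18.34% at the median and 25.22% at the highest in the 10 others. On its right it was 85.22% and 82.94%, against 71.96%, 78.35% and 82.58%. Both sides were thus higher in both pairs than in any of the 10. Since the pairs differ in their overall range, each value was set against the pair's median over the origins. The left side was then 8.80 and 9.34 points above it, against -6.53 to -2.39 in the others, and the right side 6.27 and 6.35 points above it, against 0 to 3.27. The jump stood at -0.34 and -1.38 points from the pair's median, against 4.59 to 11.67. Without that step the jumps were 54.62 and 49.35 points, within the 46.80 to 67.03 of the 10 others.

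The 3 differences in values set against the pair's median were 13.55 points on the left, 5.19 on the right and -8.50 in the jump. Each had an exact two-sided permutation p of 0.03, the smallest that 2 against 10 pairs can give, and 0.03 after adjustment over the 3. The jump is computed from both sides, so the 3 are not independent. The constructs in the 2 pairs are not the same, so the pairs are not replicates of 1 strain.

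Origin 28, between the dynein light intermediate chain gene *dli1* and the phosphatidylinositol 3-kinase gene *pik3*, lies 4580 bp right of the site at *tel2*, where 1 pair carried TuraR. Relative to the pair's median, its left side was at -4.59 points in that pair and at 0.74 to 3.21 in the 11 others. Its right side was at 4.90 points, against 7.01 to 10.59, and its jump at 11.30, against 6.85 to 10.41. Against the pair's median, both sides were thus lower than in any of the 11 others, the reverse of origin 43. Without that step its left side was 23.75%, within the 22.30% to 29.87% of the others. Its right side was 77.38%, below their 78.53% to 90.11%. The jump of 53.63 points was within their 48.65 to 67.09. A single pair allows no test. This pair is listed as rtf1::nat in the labels, but its *rtf1* counts were at 1.08 and 0.934 of the flank level.

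**Figure D5:**
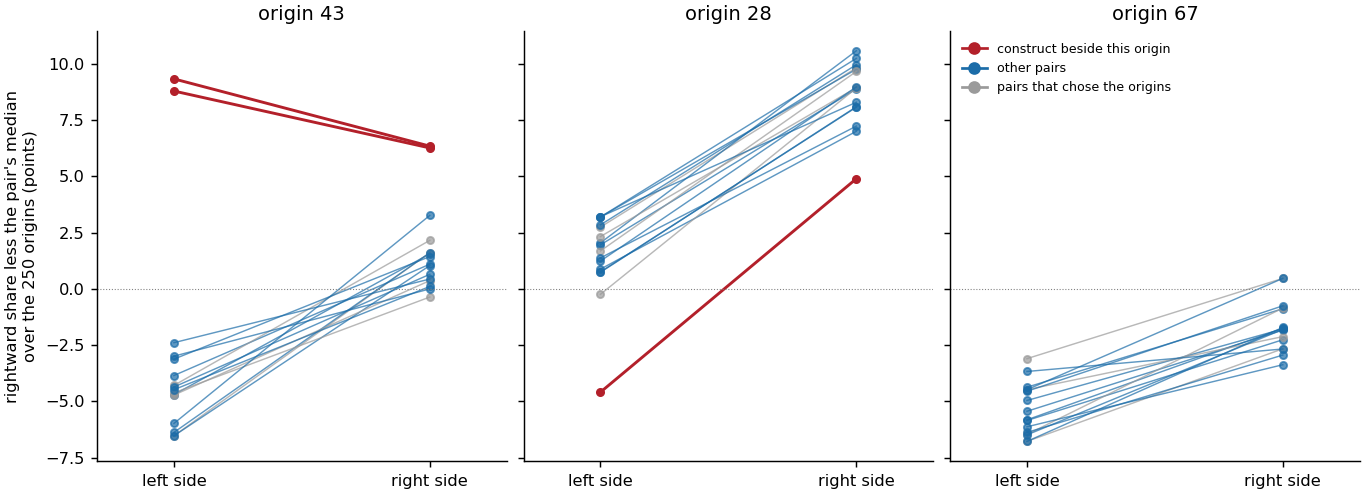
Rightward share left and right of origins 43, 28 and 67 in each of 16 pairs, less the pair's median over the 250 origins, in percentage points (red, pairs with a construct beside the origin, 4153 or 4580 bp from the gene end taken as its site; blue, other pairs not used to choose the origins; grey, pairs that chose them). Both sides of origin 43 lay above, and both sides of origin 28 below, all other pairs where a construct stood beside them.

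Origin 67, between *pdf1* and *lsc1*, lies 28141 bp left of the ChrII site. Its jump stood 2.77 to 7.50 points above the pair's median in the 12 pairs not used and 3.95 to 8.01 points above it in the 4 barrier-off pairs, and these ranges overlap. Origin 92, beside the meiotic kinase gene *mek1*, had a jump in 5 of the 12 pairs only, from 55.20 to 63.26 points. Its right side was measured in all 12 and stood at -8.88 points in the pair with TuraR at the *mek1* site, 2361 bp to its left, against -1.24 to 5.49 in the 11 others (1 pair, no test). Origin 177, 7352 bp right of *ura4*, had jumps of 36.03 to 51.25 points over 12 pairs, at -8.83 to -3.69 points from the pair's median. Origin 246, at the mating-type locus, lies 3079 bp right of the left end of the *mat1-Mc* gene. It had jumps of 33.57 to 46.74 points in the 5 pairs where it had a value. In these 5 pairs the native *RTS1* of this locus had been replaced by Phleo.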

How the data were processed

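The authors digested genomic DNA with alkali, size-selected the single strands, aligned the reads with Bowtie2 (version not given in the sources used here) and counted them in bins of 300 bp on each strand with a Perl script. The deposited values are these counts, without normalization, in 72 files for 36 libraries. Each strain's bins follow its own genome with the construct in it, except those of the array on chromosome I, which follow the reference. Libraries of the *RTS1-rRFB* genome were used without a shift. In the tandem, inverted, TuraR and array pairs, stretches beyond the first construct site of a chromosome were shifted. Each shift was the one at which the counts correlated best with those of the *rnh201-d* pku70+ barrier-off pair. The correlation was as low as 0.271, in the inverted pair. Bins beside constructs and deletions were left out. Positions were set on ASM294v3, with genes, tRNA genes, repeats and sequences from RefSeq.

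Shares were computed as in the report. For tests, raw counts were summed over 10 bins on each side of 751 candidates and 618 grid positions, with at least 10 counts in every sum. edgeR 4.0.16 in R 4.3.3 (library totals, TMM, quasi-likelihood F-test, Benjamini-Hochberg at 0.05) tested the interaction of polymerase, strand and side in the 12 pairs, its *pku70* and allele terms, and the interaction of strand and side in the Pol α libraries. limma 3.58.1 and DESeq2 1.42.0 were alternatives, as were 5 or 20 bins a side, no filter and leaving out each pair. The tests were checked on simulated counts. The exact permutation test used scipy 1.17.1. With 1 library per strain and polymerase, p-values measure the spread between strains.

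The origins, comparison sets and tests were chosen with earlier results of these data known. Members named are the first 10, those at the threshold, the member nearest to each insertion site, *ura4* and the mating-type locus. Origins 94, 176, 183, 185 and 221 were named after their values were seen. Centromere positions were not used here.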

Additional observations from a re-analysis of the deposited data

Results flagged for a closer look

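The difference in the origins' median jump between pku70-d and pku70+ pairs changed direction between backgrounds, with 1 pair on each side, and the difference between backgrounds was not tested. In *rnh201-RED* with the barrier off, the median was 54.26 points in pku70-d and 45.97 in pku70+, a difference of 8.29 points. It was -3.29 points in *rnh201-RED* with the barrier on (53.19 against 56.48), -4.29 points in *rnh201-d* with the barrier off (53.62 against 57.91) and -8.12 points in *rnh201-d* with the barrier on (49.28 against 57.40). The range of the rightward share over all bins of the genome moved the same way in each, by 10.63, -4.60, -6.95 and -11.84 points, and its part in the differences was not tested. The *rnh201-d* libraries labelled pku70-d kept 0.682 to 0.798 of the flank level over *pku70*.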

How the results depend on the processing

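The count of origins called in the 12 pairs was 243 to 248 over the alternatives, and each time all origins tested were called. It was 243 of 243 with 20 bins a side, 248 of 248 with 5 bins or limma, and 246 of 246 whichever pair was left out. Upward calls over all positions ran from 592 of 1349 with 20 bins to 755 of 1362 with 5 bins. In Pol α the count was 248 to 250, and the 248 were all of the 248 origins tested with 20 bins a side. Without the *rnh201-d* barrier-on library, not all of the 250 origins tested were called. Upward calls over all positions ran from 410 of 1369 with DESeq2's size factors to 602 of 1369 without the *rnh201-d* barrier-off library. For *pku70* and the *rnh201* allele the count of origins called was 0 under each alternative and 0 with each pair left out. When the rule's own choices were changed, 237 to 248 of the 250 origins were kept, and 246 to 248 with 1 of the 4 pairs left out. The median jump in the 12 pairs, 50.91 points, was 44.79 points with 5 bins on each side and 56.83 points when counts were summed over a side before the share was taken, and 50.39 to 51.78 points with 1 pair left out. The median Pol α jump was 49.32 to 54.99 points with 1 library left out. The A+T content, 75% in the origin's bin, was 70.47% over 5 bins and 77.0% in the most A+T-rich bin within 5 bins. The windows of 1 and 5 bins measure different stretches by construction, and for the summed counts the cause was not tested. With 1 library of each strain and polymerase, no replicates could be paired between strains. Within a strain, the Pol δ and Pol ε libraries were paired in the tests. The comparison of *pku70* and the allele within the 4 barrier-on *RTS1-rRFB* pairs, 1 of each background, had 0 calls for each. In Pol α, DESeq2's size factors turned the calls over all positions from 556 upward and 317 downward to 410 and 769. No interval between cultures can be given.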
